A study of Mus musculus with 6 samples.

Results

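The aryl hydrocarbon receptor (AhR) genes measured here were 6: Ahr, the receptor itself, Arnt, its DNA-binding partner, Ahrr, its repressor, and the target genes Cyp1a1, Cyp1b1 and Tiparp. They were chosen by gene symbol, though with earlier results of these data known, and all 6 were found among the 18268 genes of the expression table. RNA sequencing had been performed on colorectal tissue of C57BL/6 mice, which were males of 8 to 10 weeks. Colitis had been induced in all 6 with 2.5% dextran sulfate sodium (DSS) in the drinking water for 7 days, a chemical that damages the epithelium of the large intestine. By gavage, for 6 days, 3 mice received berberine (BBR), an alkaloid of medicinal plants, at 100 mg/kg, and the other 3 received sulfasalazine (SASP), a standard anti-inflammatory drug for ulcerative colitis, at 200 mg/kg. No mouse without DSS and none with DSS alone was analysed here, so every value compares the drugs with each other under colitis. The study writes of rectal samples for its BBR experiment and of colon samples for its SASP experiment. Where it compares the drugs it names no site, and the labels give the same tissue name to all 6 mice. Whether the gut site differed between the groups is therefore not known, and such a difference could not be told apart from the drug here.

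AhR is a ligand-activated transcription factor of the bHLH-PAS family that waits in the cytosol in a complex with heat shock protein 90. On binding a ligand, such as a dioxin, a plant indole or a tryptophan metabolite, it moves to the nucleus, pairs with Arnt and binds the xenobiotic response element, whose core is GCGTG. In the gut, AhR is known for its roles in the barrier, in innate lymphoid cells and intraepithelial lymphocytes, and in the clearance of ligands by CYP1 enzymes. Cyp1a1 is its classical target and is used as a readout of receptor activity. Ahrr and Tiparp are targets that act back on the receptor.

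The sequences upstream of the genes are shown because AhR acts on its targets through this element. RefSeq promoters (mouse build GRCm38.p6) were found for 5 of the 6 genes, and none was used for Ahr. The 250 bases before the start site were searched for GCGTG on both strands, so that CACGC in the printed strand is the same core read from the other side. Capitals mark the core, and each sequence runs 5′ to 3′ on the strand of the gene. Cyp1a1 lies on the + strand at chr9:57697363-57697612, Cyp1b1 on the - strand at chr17:79715062-79715311, Ahrr on the - strand at chr13:74292332-74292581 and Tiparp on the + strand at chr3:65528197-65528446.
Cyp1a1: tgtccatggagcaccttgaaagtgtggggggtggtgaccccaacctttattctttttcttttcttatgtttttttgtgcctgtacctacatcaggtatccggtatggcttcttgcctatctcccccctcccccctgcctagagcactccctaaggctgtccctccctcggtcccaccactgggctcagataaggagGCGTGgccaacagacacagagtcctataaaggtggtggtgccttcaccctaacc
Cyp1b1: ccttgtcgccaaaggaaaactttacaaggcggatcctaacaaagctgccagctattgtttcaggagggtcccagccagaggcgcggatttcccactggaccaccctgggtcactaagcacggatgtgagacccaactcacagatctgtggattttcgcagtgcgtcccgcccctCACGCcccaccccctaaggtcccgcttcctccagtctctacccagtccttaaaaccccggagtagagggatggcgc
Ahrr: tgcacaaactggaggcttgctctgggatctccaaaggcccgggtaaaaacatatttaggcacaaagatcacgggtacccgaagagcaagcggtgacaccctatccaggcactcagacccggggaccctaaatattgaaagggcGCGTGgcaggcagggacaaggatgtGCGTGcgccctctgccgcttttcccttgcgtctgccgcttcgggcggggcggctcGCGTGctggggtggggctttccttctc
Tiparp: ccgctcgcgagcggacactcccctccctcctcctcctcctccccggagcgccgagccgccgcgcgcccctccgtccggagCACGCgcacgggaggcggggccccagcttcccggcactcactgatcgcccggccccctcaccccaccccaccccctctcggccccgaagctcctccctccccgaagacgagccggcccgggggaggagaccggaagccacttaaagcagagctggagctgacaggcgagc

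All 4 target windows held the core at least once. Ahrr held 3 copies, which began 107, 82 and 27 bases before the start site. The single copies began 54 bases before the start of Cyp1a1, 76 before Cyp1b1 and 170 before Tiparp. The window of Arnt, which is no target, also held 1 copy, 29 bases before its start. Of 32851 mouse promoters searched over the same length, 28.2% held at least 1 core and 2.77% held at least 3. A core of 5 letters is therefore common, and a match is a description of the letters and not of a bound site.

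The 6 genes were expressed at very different levels. Expression is given in FPKM (the fragments of a gene per kilobase of its transcript, relative to all mapped reads), which is scaled by transcript length and so allows genes to be compared. Arnt had the highest level, with a mean over the 6 mice above that of 73.2% of all genes. Tiparp followed at 68.3% and Ahr stood in the middle of the table at 49.6%. Ahrr, Cyp1a1 and Cyp1b1 were low, above 23.2%, 16.5% and 8.01% of all genes. Arnt was above Tiparp in all mice but SASP mouse 3, and Ahr followed them in every mouse. Ahrr came next in all but BBR mouse 3, where Cyp1a1 was above it, and Cyp1a1 and Cyp1b1 changed order between mice. In bulk tissue, fewer cells that express a gene and less RNA per cell cannot be told apart.

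**Figure D1:**
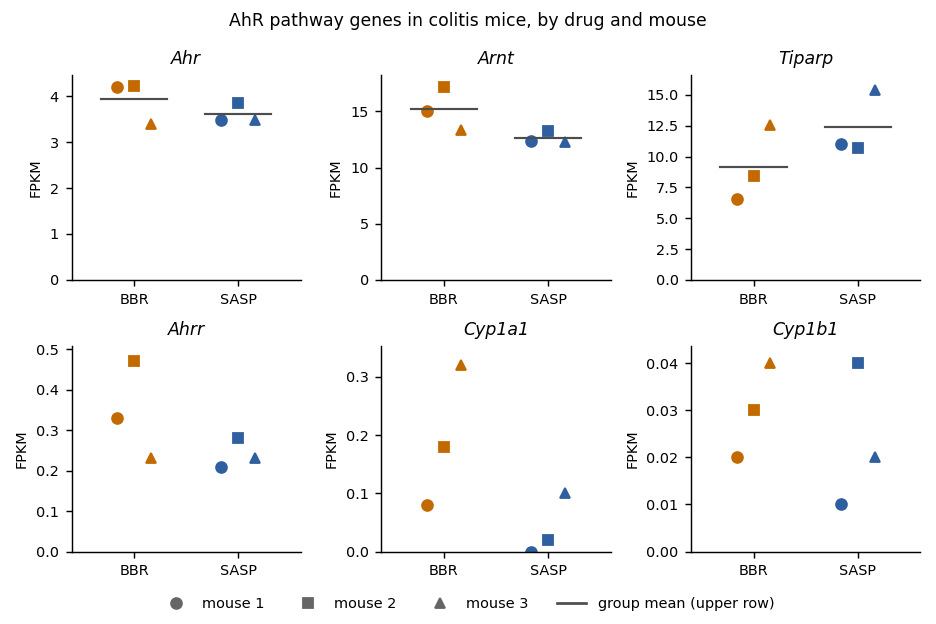
FPKM (y axis, linear and starting at 0, a different range in each panel) of the 6 genes in the 3 BBR and the 3 SASP mice, 1 point per mouse, with a line at the group mean for the genes that were tested. The groups overlap in each panel except that of Arnt, where BBR mice read 13.37 to 17.16 and SASP mice 12.25 to 13.24, and Cyp1a1 and Cyp1b1 stay under 0.5 FPKM in every mouse.

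The receptor did not pass the test. Ahr (Gene ID 11622) had 4.2, 4.22 and 3.4 FPKM in the BBR mice and 3.48, 3.86 and 3.49 FPKM in the SASP mice. BBR mouse 3 was the lowest of all 6, and the groups overlapped. The group means were 3.94 ± 0.468 FPKM with BBR and 3.61 ± 0.217 FPKM with SASP (SD, n = 3 each). On the log2(FPKM + 1) scale the difference, BBR minus SASP, was 0.10 (SE 0.13, limma adjusted p = 0.635), with a 95% confidence interval from -0.21 to 0.41. Over the 6 mice Ahr varied little: 9.87% of the tested genes had a smaller SD on this scale. The median difference of all tested genes was also 0.10, and scaling the libraries by the median ratio turned the sign of the Ahr difference to -0.01.

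Arnt (Gene ID 11863), the partner through which AhR and the hypoxia-inducible factors reach DNA, was the only one of the 6 whose groups did not overlap. It had 15.02, 17.16 and 13.37 FPKM in the BBR mice and 12.4, 13.24 and 12.25 FPKM in the SASP mice. The lowest BBR mouse, mouse 3, was just above the highest SASP mouse, mouse 2. The means were 15.2 ± 1.90 and 12.6 ± 0.534 FPKM (SD, n = 3 each). The log2 difference was 0.24 (SE 0.12, limma adjusted p = 0.212), with a 95% confidence interval from -0.04 to 0.53, which did not pass the test. Groups that do not overlap were found for 37.9% of all tested genes, so the separation of Arnt was not uncommon. Without BBR mouse 3 the log2 difference of Arnt was 0.32 (limma adjusted p = 0.0448), in a fit where 33.8% of all genes passed. Arnt exceeded Ahr in each mouse, and the ratio of their FPKM was 3.58, 4.07 and 3.93 in the BBR mice and 3.56, 3.43 and 3.51 in the SASP mice. The mean ratio was 3.86 ± 0.253 with BBR and 3.50 ± 0.067 with SASP (SD, n = 3 each), and all 3 BBR values were above all 3 SASP values, the nearest by 3.58 against 3.56. The difference of the mean ratios was 0.357 (exact permutation test, two-sided p = 0.1, which is the smallest that 3 mice a group allow).

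Tiparp (Gene ID 99929) encodes PARP7, a mono-ADP-ribosyltransferase that modifies AhR and promotes its breakdown. Its level was 6.52, 8.39 and 12.53 FPKM in the BBR mice and 11.02, 10.68 and 15.41 FPKM in the SASP mice. The SASP mice were higher than BBR mice 1 and 2, while BBR mouse 3 lay among them. The means were 9.15 ± 3.08 FPKM with BBR and 12.4 ± 2.64 FPKM with SASP (SD, n = 3 each). The log2 difference was -0.42 (SE 0.24, limma adjusted p = 0.264), with a 95% confidence interval from -0.99 to 0.15. Neither a level lower with BBR by almost 1 log2 unit nor no difference lay outside it. Tiparp was the most variable of the 3 tested genes, since 75.9% of all tested genes had a smaller SD over the 6 mice. Without BBR mouse 3, the highest of the BBR mice, the log2 difference was -0.65 (limma adjusted p = 0.0392), in the same fit with 33.8% of genes past the threshold.

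The repressor was barely expressed. Ahrr (Gene ID 11624), which competes with AhR for Arnt, had 0.33, 0.47 and 0.23 FPKM in the BBR mice and 0.21, 0.28 and 0.23 FPKM in the SASP mice, which corresponded to about 19 to 39 reads a mouse. The groups overlapped, and BBR mice 1 and 2 were the highest. The means were 0.343 ± 0.121 and 0.24 ± 0.0361 FPKM (SD, n = 3 each). Ahrr did not reach 1 FPKM in any mouse, so it was not part of the main test, and in a fit without that minimum its limma adjusted p was 0.363.

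The CYP1 enzymes, which oxidise AhR ligands and thereby clear them, were close to the limit of detection with both drugs. Cyp1a1 (Gene ID 13076) had 0.08, 0.18 and 0.32 FPKM in the BBR mice, about 3.6, 8 and 14 reads. In the SASP mice it was listed at 0 and had 0.02 and 0.1 FPKM, about 0, 0.98 and 4.5 reads. BBR mice 2 and 3 were above every SASP mouse, and BBR mouse 1 was below SASP mouse 3, so the groups overlapped. In the fit without a minimum level the unadjusted p of Cyp1a1 was 0.0453, as 25.6% of the 18260 genes of that fit had an unadjusted p of at most 0.05, and its limma adjusted p was 0.186. The size of the difference rested on a few reads and depended on the pseudocount, so no fold is given.

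Cyp1b1 (Gene ID 13078) was lower still. It had 0.02, 0.03 and 0.04 FPKM in the BBR mice and 0.01, 0.04 and 0.02 FPKM in the SASP mice, or about 0.91 to 3.7 reads a mouse. No order of the groups can be read at this depth. A low level was common in the family, though not general. Of the 78 cytochrome P450 genes in the table with a symbol of the form of Cyp1a1, only 26 had a mean of at least 1 FPKM and 33 were under 0.1 FPKM. Ordered by the mean over the 6 mice, Cyp1a1 was number 44 and Cyp1b1 number 56. Within the BBR mice they were numbers 41 and 58, and within the SASP mice numbers 50 and 53. The first gene differed between the groups: it was Cyp2c55 with BBR, at a mean of 702 FPKM, and Cyp2d34 with SASP, at a mean of 363 FPKM, where Cyp2c55 was number 7 at 44.7 FPKM.

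**Figure D2:**
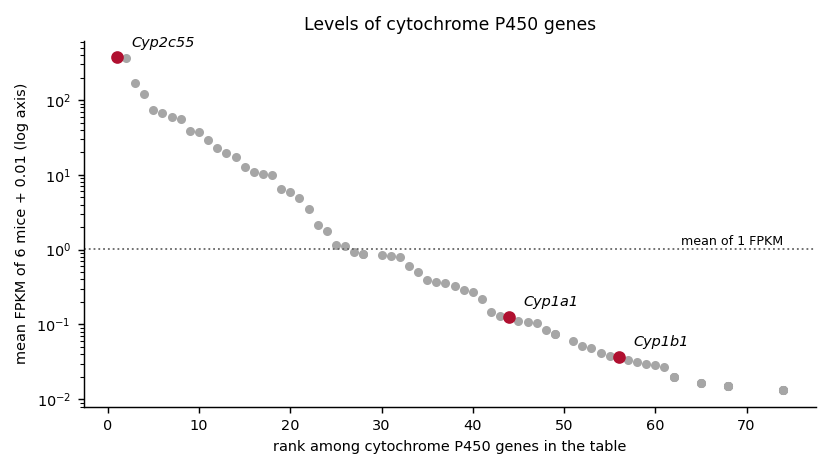
Mean FPKM over the 6 mice plus 0.01 (y axis, log scale) of the 78 cytochrome P450 genes in order of level (x axis, rank, ties sharing a rank), 1 point per gene, with a dotted line at a mean of 1 FPKM. Cyp1a1 at rank 44 and Cyp1b1 at rank 56 lie under the line. Cyp2c55 holds rank 1 over all mice through its level in the BBR mice, 702 against 44.7 FPKM with SASP.

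None of the 3 AhR genes that could be tested passed the threshold: 0 of 3 had a limma adjusted p under 0.05, beside 8.86% of the 12072 genes tested, and 0 of 3 had an unadjusted p of at most 0.05, beside 31.8%. When single libraries were weighted by their quality (array weights in limma), 3 of 3 passed, in a fit where 59.0% of all genes did. In the fit without a minimum level, 0 of 6 passed, beside 3.33% of all genes. Of those 12072 genes, 3.82% passed with a higher level in BBR mice and 5.04% with a lower one. Arnt and Ahr had positive differences and Tiparp a negative one, while 60.8% of all tested genes had a positive difference. With 3 mice a group these p-values set the difference of the groups against the spread between mice. A p above the threshold does not show that the drugs left the pathway alike.

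The genes nearest to each AhR gene across the 6 mice were found from the difference of their profiles, each centred on its own mean, as a root mean square on the log2 scale. Ahr was nearest to Tex261, at 0.00846, then to Smim11 and Zbtb38, at 0.0201 and 0.0204. Arnt was nearest to Pcm1, a protein of centriolar satellites, at 0.00933, then to Rab33b and Mynn, at 0.0202 and 0.0255. Tiparp was nearest to Muc1, a mucin of the epithelial surface, at 0.0446, then to Crem, a cAMP-responsive factor, and to Actb, at 0.0903 and 0.110. Muc1 had 16.6, 19.31 and 28.7 FPKM in the BBR mice and 25.85, 26.46 and 36.3 FPKM in the SASP mice, so that, like Tiparp, it was highest in mouse 3 of each group. These likenesses rest on 6 mice and are given as a description.

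Among the proteins that hold AhR ready in the cytosol, 2 chaperone genes were lower with BBR. Of 11 genes of the cytosolic complex and the nuclear coactivators, 10 were tested, 2 passed with a lower level and 0 with a higher one, and the median log2 difference was -0.02, beside 5.04% of all genes passing with a lower level and a median of 0.10. Hsp90aa1, the inducible form of heat shock protein 90, had 69.46, 96.21 and 87.17 FPKM in the BBR mice and 163, 135 and 151 FPKM in the SASP mice. It was lower with BBR than with SASP by 0.83 on the log2 scale (SE 0.15, limma adjusted p = 0.0243), and the groups did not overlap. Ptges3, the cochaperone p23, had 42.59, 53.63 and 50.23 FPKM with BBR and 71.17, 67.66 and 72.27 FPKM with SASP. It was lower with BBR by 0.52 on the log2 scale (SE 0.11, limma adjusted p = 0.0385). These chaperones serve many client proteins besides AhR. The call of Hsp90aa1 was lost without either BBR mouse 1 or any 1 of the SASP mice, and that of Ptges3 was lost without any 1 mouse other than BBR mouse 3 and in the fit without a minimum level.

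Other genes of the classical AhR battery, mostly detoxification enzymes that AhR and Nrf2 switch on together, were also examined. Of 6 genes, 5 were in the table and 4 were tested. Of those 4, 0 passed, beside 8.86% of all genes tested. Their median log2 difference was 0.15, beside 0.10 for all genes. Nfe2l2, which encodes Nrf2, had the smallest p. It had 71.1, 77.45 and 50.03 FPKM in the BBR mice and 40.66, 47.09 and 41.8 FPKM in the SASP mice, which did not overlap, with a log2 difference of 0.58 (SE 0.17, limma adjusted p = 0.0746). Nqo1, a quinone reductase, had 11.88, 9.98 and 11.82 FPKM with BBR and 5.63, 9.45 and 3.97 FPKM with SASP, also without overlap, as in 37.9% of all genes, and a log2 difference of 0.80 (SE 0.26, limma adjusted p = 0.0934). Gsta1, a glutathione transferase, had 7.17, 11.88 and 29.31 FPKM with BBR and 26.78, 70.19 and 26.92 FPKM with SASP, which overlapped, with a log2 difference of -1.37 (SE 0.55, limma adjusted p = 0.14). Ugt1a6a, a glucuronosyltransferase, had 4.8, 2.89 and 8.86 FPKM with BBR and 4.02, 9.24 and 6.71 FPKM with SASP, a log2 difference of -0.28 (SE 0.39, limma adjusted p = 0.641). Both of these genes have near-identical paralogs between which reads could be divided, so their values are uncertain. Aldh3a1 stayed at or under 0.51 FPKM in every mouse.

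Genes that depend on AhR in intestinal lymphocytes were mostly at the edge of detection. Of 8 genes, 2 were tested, 6 were too low and 5 were listed at 0 in at least 1 mouse. Il22, the cytokine of group 3 innate lymphoid cells, was listed at 0 in all 3 BBR mice and in SASP mouse 1, and had 1.2 and 0.1 FPKM in SASP mice 2 and 3. Kit had 8.42, 12.26 and 7.08 FPKM in the BBR mice and 4.88, 5.11 and 4.88 FPKM in the SASP mice, with a log2 difference of 0.75 (SE 0.19, limma adjusted p = 0.0562). Kit is also a marker of the interstitial cells of Cajal in the muscle layer, and the summed level of 10 smooth muscle markers was 2888 to 6808 FPKM with BBR and 757 to 2321 FPKM with SASP. The part of muscle in the Kit values was not tested. The T cell genes Cd3e, Cd4, Cd8a and Il7r had group means under 1 FPKM. Cd3g, another T cell gene, had means of 1.11 FPKM with BBR and 0.913 FPKM with SASP. It was tested, with a log2 difference of 0.17 (SE 0.19, limma adjusted p = 0.564).

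Among the enzymes that make or clear tryptophan-derived ligands of AhR, the first enzyme of the kynurenine route was lower with BBR. Of 11 genes, 4 were tested, 1 passed with a lower level, beside 5.04% of all genes, and 0 with a higher one, and the median log2 difference was -0.10. Ido1, which is also strongly induced by interferon gamma, had 7.63, 11.73 and 6.94 FPKM in the BBR mice and 104.92, 29.42 and 105.66 FPKM in the SASP mice. It fell by 2.87 on the log2 scale (SE 0.49, limma adjusted p = 0.0219), and every SASP mouse was above every BBR mouse, with SASP mouse 2 well below the other SASP mice. The call was lost without BBR mouse 1, SASP mouse 1 or SASP mouse 3. Of the 4 tested genes, 2 had a positive difference and 2 a negative one. Afmid, another gene of this list, had 8.61, 8.83 and 7.63 FPKM with BBR and 4.9, 6.31 and 6.56 FPKM with SASP. Its log2 difference was 0.44 (SE 0.14, limma adjusted p = 0.0877). Tdo2 and Ido2, which catalyse the same step as Ido1, and Kmo and Kynu, which act further along the route, were under 0.5 FPKM in every mouse. Il4i1, an amino acid oxidase of immune cells that also yields AhR ligands, had 0.35, 0.73 and 0.43 FPKM with BBR and 1.87, 0.95 and 1.15 FPKM with SASP and was too low for the test. The summed level of 7 pan-leukocyte markers was 20.2 to 35.3 FPKM with BBR and 34.1 to 73.3 FPKM with SASP, and that of 8 macrophage markers 129 to 168 and 236 to 260 FPKM. Of the 8 macrophage markers, 3 had a positive difference and 5 a negative one. Much of the gap between their sums came from Cd14, with 21.97, 20.3 and 32.26 FPKM with BBR and 116.25, 75.73 and 83.93 FPKM with SASP. The part of leukocytes and macrophages in the values of Ido1 and Il4i1 was not tested.

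Arnt also serves the hypoxia-inducible factors, so their genes were examined too. Of 8 other bHLH-PAS partners of Arnt, 3 were tested and 0 passed, beside 8.86% of all genes. Their median log2 difference was 0.03, beside 0.10 for all genes. Epas1, which encodes HIF-2α, had the smallest p, with 64.16, 76.31 and 66.1 FPKM in the BBR mice and 57.43, 52.02 and 55.16 FPKM in the SASP mice and a log2 difference of 0.32 (SE 0.11, limma adjusted p = 0.0938). Hif1a had 45.57, 32.42 and 89.66 FPKM with BBR and 74.26, 84.58 and 87.37 FPKM with SASP, with BBR mouse 3 apart from the other BBR mice. Of 12 hypoxia genes read by the dimer of HIF and Arnt, 11 were in the table and tested. For 10 of them the difference was negative, while 60.8% of all tested genes had a positive one, and the median was -0.26. Among these 10, Ldha and Kdm3a hardly differed, by -0.04 and -0.0012 on the log2 scale. Only 1 passed, with a lower level, a share near the 8.86% of all genes that passed in either direction, while 5.04% passed with a lower level. That gene was Pgk1, the glycolytic phosphoglycerate kinase, with 269.45, 304.27 and 298.92 FPKM in the BBR mice and 489.5, 462.53 and 465.64 FPKM in the SASP mice. Pgk1 was lower with BBR by 0.70 on the log2 scale (SE 0.11, limma adjusted p = 0.0186), a call that was lost without any 1 mouse other than BBR mouse 3. Ndrg1 was the exception in direction, with a log2 difference of 0.53 (SE 0.20, limma adjusted p = 0.131).

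Several genes of the enzyme family of Tiparp were lower with BBR. Of 7 other PARP genes, all were tested, 6 had a negative difference, 4 passed with a lower level, beside 5.04% of all genes, and 0 with a higher one, and the median log2 difference was -1.01. Parp12, which shares the CCCH zinc fingers of Tiparp, had 55.8, 58.02 and 71.54 FPKM in the BBR mice and 125.6, 113.82 and 134.42 FPKM in the SASP mice. It was lower with BBR by 1.01 on the log2 scale (SE 0.13, limma adjusted p = 0.0109). Parp9 had 29.49, 31.97 and 33.84 FPKM with BBR and 125.77, 99.86 and 135.23 FPKM with SASP, and Parp14 had 15.45, 13.3 and 16.81 FPKM with BBR and 86.87, 55.14 and 96.2 FPKM with SASP. On the log2 scale Parp9 was lower with BBR than with SASP by 1.88 (SE 0.14, limma adjusted p = 0.00171). Parp14 was lower by 2.28 (SE 0.21, limma adjusted p = 0.00443). Parp10 had 12.22, 11.95 and 8.11 FPKM with BBR and 23.74, 19.91 and 28.88 FPKM with SASP. It was lower with BBR by 1.10 on the log2 scale (SE 0.20, limma adjusted p = 0.0246). None of the 4 overlapped between groups, as was the case for 37.9% of all tested genes. Parp9, Parp10, Parp12 and Parp14 are known as interferon-inducible genes. The parts of interferon and of AhR in their values were not tested. Zc3hav1, the antiviral zinc finger protein PARP13, had a log2 difference of -0.69 (SE 0.17, limma adjusted p = 0.0529), and the DNA repair enzymes Parp1 and Parp2 overlapped between the groups. The calls of Parp9 and Parp14 held when any 1 mouse was left out, whereas Parp12 and Parp10 lost theirs without BBR mouse 1, SASP mouse 1 or SASP mouse 3, and Parp10 also without BBR mouse 2.

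**Figure D3:**
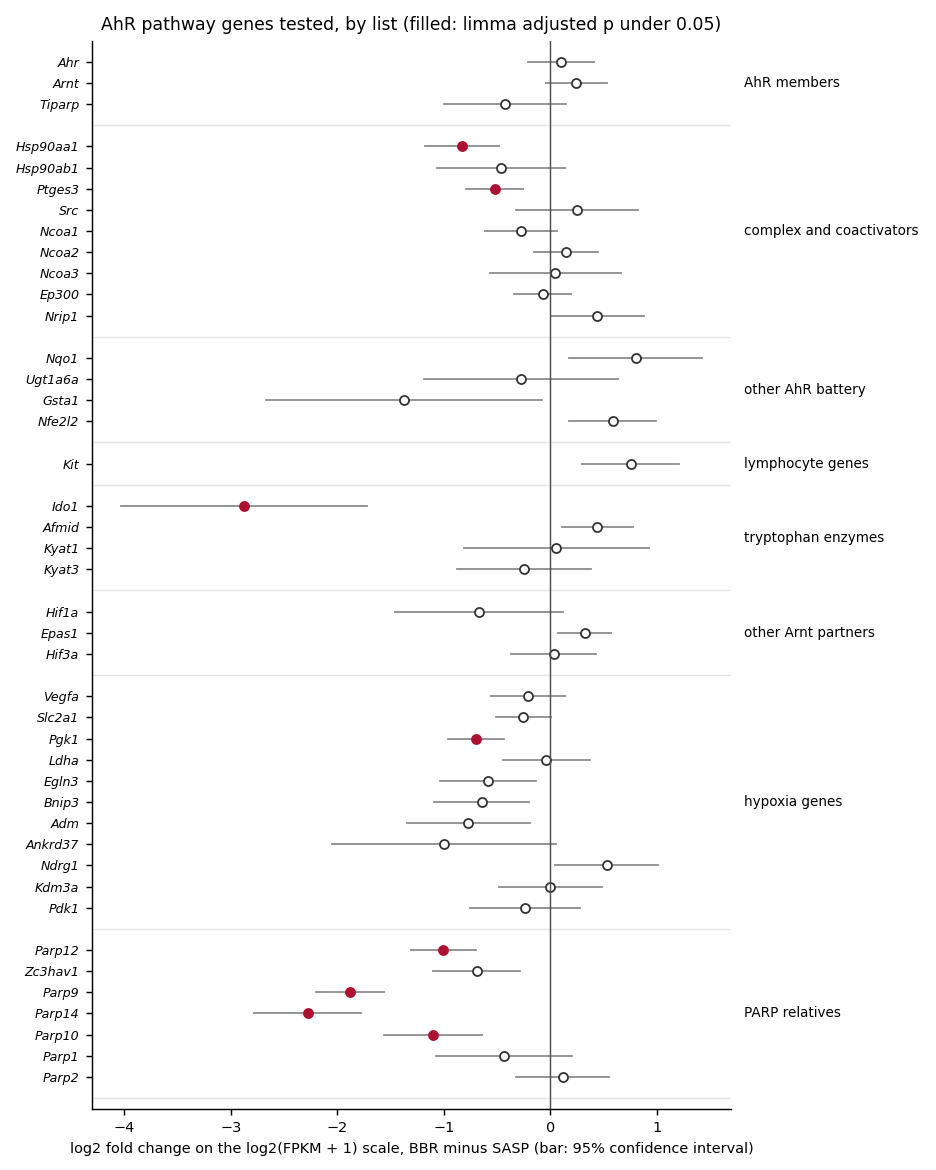
Log2 difference, BBR minus SASP, on the log2(FPKM + 1) scale (x axis) with its 95% confidence interval for the tested AhR genes and the tested genes of the 7 pathway lists that are reported here (y axis, grouped by list), with red points for a limma adjusted p under 0.05. The intervals of Ahr, Arnt and Tiparp include 0, and all 8 red points, Hsp90aa1, Ptges3, Ido1, Pgk1, Parp12, Parp9, Parp14 and Parp10, lie on the side of SASP.

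Markers of several cell types were summed in each mouse, and their counts past the threshold stand beside 3.82% of all genes with a higher level, 5.04% with a lower one and 60.8% with a positive difference. The 11 epithelial markers overlapped in their sum, with 8395 to 9190 FPKM in the BBR mice and 8679 to 9942 FPKM in the SASP mice, 2 of them passed with a higher level and 1 with a lower one, and the most abundant was Lgals4 at a mean of 2498 and 2459 FPKM. All 10 smooth muscle markers had a positive difference, with a median of 1.32 on the log2 scale and 0 past the threshold, and Tagln, the most abundant, had 1111 ± 628 FPKM with BBR and 462 ± 241 FPKM with SASP (SD, n = 3 each). BBR mouse 3 held the highest smooth muscle sum. Of 9 fibroblast markers, led by Dcn, all had a positive difference and 4 passed, and their sums were 313 to 424 FPKM with BBR and 152 to 248 FPKM with SASP. The 7 endothelial markers, led by Pecam1, summed to 18.74 to 35.43 and 10.01 to 13.92 FPKM, and 1 of them passed with a higher level. The 7 pan-leukocyte markers, led by Cd52, all had a negative difference and 0 passed. Of 8 macrophage markers, led by Lyz2, 3 had a positive difference and 5 a negative one, and 1, Cd14, passed with a lower level. Of 8 markers of T cells and innate lymphoid cells, 3 were tested and 1 passed with a higher level, Thy1, which fibroblasts also express. The part of these cell types in the AhR values was not tested.

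**Figure D4:**
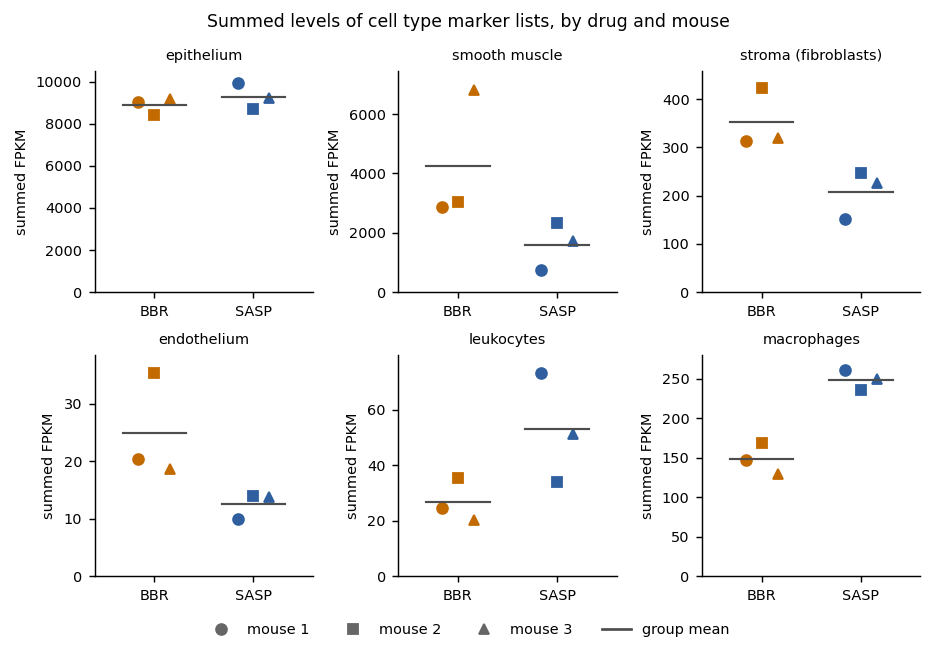
Summed FPKM (y axis, linear and starting at 0, a different range in each panel) of 6 lists of cell type markers in the 3 BBR and the 3 SASP mice, 1 point per mouse, with a line at the group mean. The epithelial sums overlap, the smooth muscle, stromal and endothelial sums are higher in every BBR mouse than in any SASP mouse, and the macrophage sums are lower. Of the 8 macrophage markers, 3 had a positive difference.

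With a score of the smooth muscle markers as a covariate, 19 of the 12072 genes passed in place of 1069, and none of the 8 genes above was among them. In that fit the log2 differences of Ahr, Arnt and Tiparp were 0.16, 0.30 and -0.83 (limma adjusted p = 0.716, 0.45 and 0.279). Their SEs were 0.21, 0.20 and 0.32, against 0.13, 0.12 and 0.24 in the main fit. The smooth muscle sums did not overlap between the groups, so muscle and drug cannot be told apart in this fit. BBR mouse 3 stood farthest from its group, at a root mean square of 0.57 log2 units from the other BBR mice, where the other 5 mice lay at 0.21 to 0.38. The tissue had 11518 to 12307 genes at 1 FPKM or more in a mouse, and the depth, estimated from the table, was 16400000 to 18200000 reads.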

How the data were processed

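Colorectal RNA of 6 mice was sequenced, 3 with BBR and 3 with SASP, grouped by the treatment label. The authors deposited FPKM values per gene. According to the submitters' processing notes, Bowtie2 2.2.5, RSEM 1.2.12 and build mm9 were used, and the annotation is not given in the sources used here. The study's methods add ribosomal RNA depletion and 50-base single-end reads filtered with SOAPnuke 1.5.2, whereas the labels name an Illumina TruSeq kit. RSEM divides reads among near-identical genes, so such genes are uncertain. All columns of per-sample values were used.

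Deposited FPKM were transformed as log2(FPKM + 1), a scale that understates differences of low genes. Genes with at least 1 FPKM in at least 3 of the 6 mice were tested with limma 3.58.1 (R 4.3.3, empirical Bayes with a mean-variance trend, two-sided, Benjamini-Hochberg over all genes tested, threshold 0.05). The fit was tested on simulated data. The labels give each mouse as a separate sample, and p-values set the difference of the groups against the spread between these samples. Depth was estimated from genes above 0 in a single mouse with transcripts under 1500 bases, each taken as 1 read. Reads per gene are therefore approximate.

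The AhR genes, 7 pathway lists and 7 marker lists were chosen with earlier results of these data known. Named were all 6 AhR genes, their 3 nearest profiles, each list member past the threshold or, with none, that with the smallest p, and the most abundant marker of each list. Other list genes, namely Nqo1, Gsta1, Ugt1a6a, Aldh3a1, Il22, Cd3e, Cd3g, Cd4, Cd8a, Il7r, Tdo2, Ido2, Kmo, Kynu, Afmid, Il4i1, Hif1a, Ndrg1, Ldha, Kdm3a, Zc3hav1, Parp1, Parp2, Cd14, Thy1, Cyp2c55 and Cyp2d34, were named after their values had been seen. Cyp1a2 and Ca9 were not analysed here, and values of 2 list genes are not reported here, though they count in their lists. Promoters came from RefSeq (GRCm38.p6), and no coordinates were carried between builds. Alternatives were other filters, pseudocounts, scalings, weights, a muscle covariate and leaving out each mouse.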

Additional observations from a re-analysis of the deposited data

How the results depend on the processing

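The number of genes past the threshold, 1069 (461 higher and 608 lower in BBR mice), depended strongly on the processing. It was 608 with no filter, 1737 after quantile normalization, 1683 after median-ratio scaling (499 higher and 1184 lower), 7126 with array quality weights (4636 higher and 2490 lower), 19 with the smooth muscle covariate and 3837 at an unadjusted p of at most 0.05. Leaving out 1 mouse gave 51 genes (without SASP mouse 3) to 4018 (without BBR mouse 3), with 131 without BBR mouse 1, 371 without BBR mouse 2, 59 without SASP mouse 1 and 405 without SASP mouse 2. Median-ratio scaling moved the median log2 difference of all genes from 0.10 to -0.02.

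The log2 difference of Ahr (0.10) was -0.0278 after quantile normalization, -0.0105 after median-ratio scaling and 0.19 with array quality weights (limma adjusted p = 0.0418), and 0.05 to 0.18 without 1 mouse. That of Arnt (0.24) was 0.27 with array quality weights (limma adjusted p = 0.0063) and 0.16 to 0.32 without 1 mouse. That of Tiparp (-0.42) was -0.97 with array quality weights (limma adjusted p = 0.000922) and -0.65 to -0.23 without 1 mouse. With those weights 59.0% of all genes passed. With pseudocounts of 0.1 and 0.01 in place of 1, the difference of Ahrr (0.11) was 0.35 and 0.45, that of Cyp1a1 (0.19) 1.05 and 2.47 and that of Cyp1b1 (0.01) 0.0803 and 0.33, since these genes rest on few reads. Without 1 mouse Ahrr gave 0.05 to 0.17 and Cyp1a1 0.12 to 0.26.

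The median of the battery list (0.15) was -0.32 with the smooth muscle covariate, that of the lymphocyte genes (0.45) was -0.0194 with no filter, and that of the other Arnt partners (0.03) was -0.18 with a mean of at least 5 FPKM, -0.11 after quantile normalization and -0.0843 without BBR mouse 2. With no filter the lymphocyte list held 8 tested genes in place of 2. With a mean of at least 5 FPKM the list of Arnt partners held 2 in place of 3. Those medians therefore cover other sets of genes than in the main fit. The cause of the remaining shifts was not tested. No paired analysis was possible because the replicate numbers follow accession order and only name a mouse.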
